A study of Drosophila melanogaster with 2 samples.

Results

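The genes described here encode subunits of the oxidative phosphorylation complexes of Drosophila melanogaster. They are the protein-coding genes of Ensembl release 115 whose symbols start with ND- (complex I), UQCR (complex III), COX (complex IV) or ATPsyn (complex V, the ATP synthase). The rule found 80 genes among 13945 protein-coding genes on 6 chromosome arms. Of the 80, 59 are canonical subunit genes and 21 have a symbol that ends in L or in L and a digit, which marks a paralogue of a canonical subunit. Complex I had 34 canonical genes and 6 L paralogues, complex III 6 and 3, complex IV 8 and 8, and complex V 11 and 4. The prefixes miss subunit genes with other names, such as blw, RFeSP and levy, and select no assembly factor.

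Where the Dachshund protein sat on chromatin was measured by chromatin immunoprecipitation and sequencing (ChIP-seq) with an antibody to GFP in whole prepupae, male and female animals pooled. The animals carried 1 stable transgenic line that makes Dachshund, a nuclear cofactor of the retinal determination network encoded by dac, with eGFP fused to its C-terminus. The chromatin was sonicated to fragments of 200 to 800 bp. A single group of 2 biological replicates, labelled 1 and 3, was studied. An age of 48 days in the labels disagrees with the prepupal stage and was not used. No other genotype and no untagged or control sample was analysed here, so recovery by Dachshund and nonspecific recovery of open promoters cannot be told apart, and every tissue of the animal is averaged.

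Oxidative phosphorylation couples the flow of electrons from NADH and succinate to oxygen with the pumping of protons across the inner mitochondrial membrane, and ATP synthase uses that gradient. Most subunits are encoded in the nucleus, and a smaller set, transcribed inside the organelle, is encoded by mitochondrial DNA. In flies many canonical subunits have a paralogue of the L type, and several such paralogues are known for expression in testis. Metamorphosis begins at the prepupal stage, when larval tissues break down and adult tissues form.

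The sequences that carry the main observation are the short stretches between start sites at which a Dachshund summit lay. They are shown, except those of ND-MWFE and ND-24, with the strongest distal site and a site found in replicate 3 alone. Each is the unbroken run of bases without an annotated exon around the summit, at most 149 bases to each side, read 5′ to 3′ on the strand of the named gene from the RefSeq Release 6 (dm6) assembly. Capitals mark matches to any of 10 motifs that are spelled out with the motif counts. They were the TATA box word, TATAAA on either strand, in ND-ASHI, and that box together with an overlapping TTATATAA element in ND-SGDH and ND-42. The other sequences held none of the motifs, and longer windows that run past the start sites are counted further on.
ND-ASHI (chrX:6679217-6679515, minus strand, IDR peak shared with Fum1): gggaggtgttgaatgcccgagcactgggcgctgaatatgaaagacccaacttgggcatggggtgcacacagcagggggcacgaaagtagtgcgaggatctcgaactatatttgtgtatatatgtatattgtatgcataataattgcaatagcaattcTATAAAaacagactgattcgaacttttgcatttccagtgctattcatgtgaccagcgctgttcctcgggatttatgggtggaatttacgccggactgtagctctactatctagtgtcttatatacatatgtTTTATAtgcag
COX6B (chrX:19744336-19744430, minus strand, IDR peak at the start site): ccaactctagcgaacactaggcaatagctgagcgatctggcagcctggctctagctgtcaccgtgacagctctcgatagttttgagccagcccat
COX5A (chr3R:11819421-11819547, plus strand, IDR peak shared with glo): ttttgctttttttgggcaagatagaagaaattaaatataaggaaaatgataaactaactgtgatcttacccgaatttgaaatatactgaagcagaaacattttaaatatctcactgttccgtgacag
COX7B (chr3L:17425218-17425476, plus strand, IDR peak shared with Sec3): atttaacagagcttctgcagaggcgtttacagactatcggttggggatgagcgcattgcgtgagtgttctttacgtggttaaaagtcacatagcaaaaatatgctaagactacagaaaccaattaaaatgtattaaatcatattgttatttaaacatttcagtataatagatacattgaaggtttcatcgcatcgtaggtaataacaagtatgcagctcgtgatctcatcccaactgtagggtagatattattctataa
ND-SGDH (chr3L:12138585-12138861, minus strand, IDR peak shared with RhoGAP68F): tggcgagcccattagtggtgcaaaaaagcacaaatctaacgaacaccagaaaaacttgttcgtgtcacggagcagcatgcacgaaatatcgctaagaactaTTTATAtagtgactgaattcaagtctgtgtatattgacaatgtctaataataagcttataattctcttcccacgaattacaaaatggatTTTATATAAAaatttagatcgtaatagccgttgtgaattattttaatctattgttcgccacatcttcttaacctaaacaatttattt
COX7AL2 (chr2L:2199190-2199488, minus strand, distal IDR peak): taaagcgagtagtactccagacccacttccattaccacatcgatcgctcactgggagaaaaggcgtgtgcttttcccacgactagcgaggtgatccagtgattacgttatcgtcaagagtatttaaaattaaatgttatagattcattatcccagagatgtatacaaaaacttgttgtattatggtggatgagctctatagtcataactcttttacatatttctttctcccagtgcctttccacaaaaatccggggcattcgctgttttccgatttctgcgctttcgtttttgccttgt
ND-42 (chr3R:22027481-22027648, plus strand, peak of replicate 3, between Cchl and ND-42): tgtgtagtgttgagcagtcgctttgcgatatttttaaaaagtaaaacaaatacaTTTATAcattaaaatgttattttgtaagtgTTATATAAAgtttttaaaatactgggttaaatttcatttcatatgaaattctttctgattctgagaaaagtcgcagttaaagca

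The deposited values are peak lists. The list kept by the irreproducible discovery rate procedure (IDR, which compares the ranks of peaks between replicates) held 4137 peaks on dm6. Not every peak in it was seen in both replicates, as described for COX6B below. The relaxed lists of replicate 1, replicate 3 and both pooled held 30000 peaks each, of which 5282 in replicate 1 and 13828 in replicate 3 had a q-value of 0.05 or less. A peak was given to the protein-coding gene with the transcription start site (TSS) nearest to its summit, and genes at an equal distance were both counted, as happened at 86 IDR peaks. The signal of a peak is the authors' own value, whose scale is not given in the sources used here and differs between lists, so lists were compared by rank (1 is the highest signal). Read depth is unknown, and the 95% Wilson intervals below cover only the number of genes or peaks counted.

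The share of these genes that lay nearest to an IDR peak was below that of all genes, but not beyond its interval. Of the 80 members, 9 (11.2%, 95% interval 6.03 to 20.02%) had the nearest TSS of at least 1 IDR peak, against 17.6% of all protein-coding genes. The share was 13.6% of canonical genes (8 of 59, interval 7.03 to 24.5%) and 4.76% of L paralogues (1 of 21, interval 0.846 to 22.7%). The share of all genes lies inside each of these 3 intervals. A summit within 500 bp of the TSS nearest to it was found for 5 members (6.25%, interval 2.70 to 13.8%), against 9.57% of all genes. When any TSS of the gene within 500 bp of a summit counted, whichever gene was nearer, there were 7 members (8.75%, interval 4.30 to 17.0%), all canonical, against 12.3% of all genes. By each of these counts the share of the members was below that of all genes, though within its own interval. Without replicate 3, that is with the 4137 highest peaks of replicate 1 alone, the 8 canonical genes became 5. The 5 members with a nearest summit within 500 bp became 3. Of the genes lost, only COX6B had no overlapping peak in replicate 1. The peaks of ND-ASHI (rank 265 in replicate 1) and ND-MNLL (rank 3601) were present there but nearest to Fum1 and Nek2. A second overlapping peak at ND-MNLL was nearest to that gene, but at rank 10370 it lay outside the 4137.

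**Figure D1:**
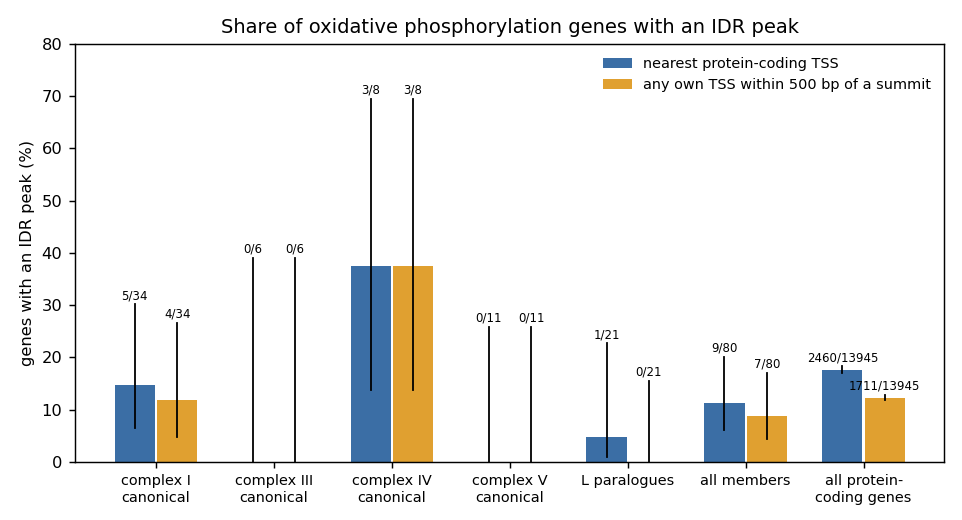
Share of genes with an IDR peak (%, y axis) for canonical subunit genes of each complex, L paralogues, all members and all protein-coding genes, by nearest TSS (blue) and by any own TSS within 500 bp (orange). Lines are 95% Wilson intervals and the numbers are genes with a peak over genes in the group; complexes III and V stand at 0, and complex IV at 3 of 8 canonical genes.

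The genes with an IDR peak belonged to complexes I and IV. In complex I, 5 of 40 genes (12.5%, interval 5.46 to 26.1%) had an IDR peak, all of them canonical, and in complex IV 4 of 16 (25.0%, interval 10.2 to 49.5%), of which 3 of 8 were canonical. None of the 9 complex III genes had one, which allows a share of up to 33.3% (3 counts of the total). None of the 15 complex V genes had one, which allows up to 20%. Without replicate 3 complex I had 3 of 40 and complex IV 3 of 16, and without replicate 1 they had 4 of 40 and 4 of 16, with 1 of 15 in complex V (ATPsynE). With so few genes in each complex, the intervals of complexes I, III, IV and V overlap one another.

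The strongest peak at a member was that of ND-ASHI, an accessory subunit of complex I. It spanned chrX:6679236-6679500 and had a signal of 534 and rank 225 of 4137 in the IDR list, rank 265 (signal 201) in replicate 1 and rank 237 (signal 322) in replicate 3. Both replicates thus placed it among their highest peaks. The summit lay 248 bp upstream of the nearest ND-ASHI TSS and 274 bp from a TSS of Fum1, which runs the other way and encodes fumarase of the tricarboxylic acid cycle. It lay in an intron of a longer Fum1 transcript. The summit of replicate 1 was 26 bp away from the IDR summit and nearer to Fum1, so the choice of gene turned on a few bases, while the peak itself did not.

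The other complex I promoters with an IDR summit had signals near the bottom of the list, with 1 exception. ND-MWFE, a small membrane-arm subunit, had a peak at chr2R:13158286-13158695 with a signal of 306 (rank 783), rank 1093 in replicate 1 and rank 765 in replicate 3. That summit was 175 bp upstream of ND-MWFE but 46 bp from TppII, a peptidase gene on the other strand, so the nearest-TSS rule gave it to TppII. ND-24, which encodes a subunit of the NADH-binding module, had a peak at chrX:17632071-17632480 with a signal of 119 (rank 3688), rank 3479 (signal 52.1) in replicate 1 and rank 4207 (signal 69.0) in replicate 3. Its summit was 45 bp upstream of an ND-24 TSS, in an exon of a longer ND-24 transcript, and 229 bp from corolla, a gene of the synaptonemal complex. ND-SGDH, another accessory subunit, had a peak at chr3L:12138507-12138916 with a signal of 113 (rank 3961), rank 2593 (signal 62.2) in replicate 1 and rank 6668 (signal 50.1) in replicate 3. Its summit was 128 bp upstream of ND-SGDH and 156 bp from RhoGAP68F, a GTPase-activating protein gene. The lowest signal in the whole IDR list was 110, so ND-24 and ND-SGDH were close to its lower edge.

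Complex IV had 3 promoter summits. COX6B, a subunit on the intermembrane-space side, had a peak at chrX:19744158-19744567 with a signal of 137 (rank 2960). It was rank 2177 (signal 106) in replicate 3, and no peak of the relaxed list of replicate 1 overlapped it. The summit was 28 bp upstream of a TSS that COX6B and CG18809 share, and 68 bp from a TSS of CG33932 and Rpp20, a ribonuclease P subunit gene, on the other strand. COX7B, a small subunit of the oxidase, had a peak at chr3L:17425152-17425561 with a signal of 122 (rank 3542), rank 3476 (signal 52.1) in replicate 1 and rank 5011 (signal 61.3) in replicate 3. Its summit was 120 bp upstream of COX7B and 140 bp from Sec3, an exocyst subunit gene. COX5A, a matrix-side subunit, had a peak at chr3R:11819304-11819713 with a signal of 123 (rank 3508), rank 4907 (signal 42.7) in replicate 1 and rank 3074 (signal 84.9) in replicate 3. The summit was 90 bp upstream of a COX5A TSS and 89 bp from glo, a gene for an RNA-binding translational repressor, so a difference of 1 bp gave the peak to glo.

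All 7 promoter summits of members lay between start sites that point away from each other. Each of the 7 IDR peaks within 500 bp of a member TSS had TSSs on both strands within 500 bp, against 409 of the 1455 IDR peaks within 500 bp of any protein-coding TSS (28.1%). A head-to-head partner, here another protein-coding gene with a TSS on the opposite strand within 500 bp of a TSS of the gene, is common among these genes. It was present at 39 of the 80 members (48.8%), at 36 of 59 canonical genes (61.0%) and at 3 of 21 L paralogues (14.3%), against 3878 of all 13945 protein-coding genes (27.8%). Among genes with such a partner, 7 of 39 members (17.9%, interval 8.98 to 32.7%) had an IDR summit within 500 bp of a TSS, against 21.7% of all genes with a partner. Among genes without one, 0 of 41 members had such a summit, which allows a share of up to 7.32%, against 8.64% of all genes without a partner. With a partner the share of the members was thus close to that of all such genes, and without one no member had a promoter summit in the IDR list. Canonical genes without a partner were 0 of 23, which allows up to 13.0%, a limit above the 8.64%. In the pooled relaxed list 6 of 41 members without a partner had such a summit (14.6%, interval 6.88 to 28.4%), against 31.4% of all genes without one.

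**Figure D2:**
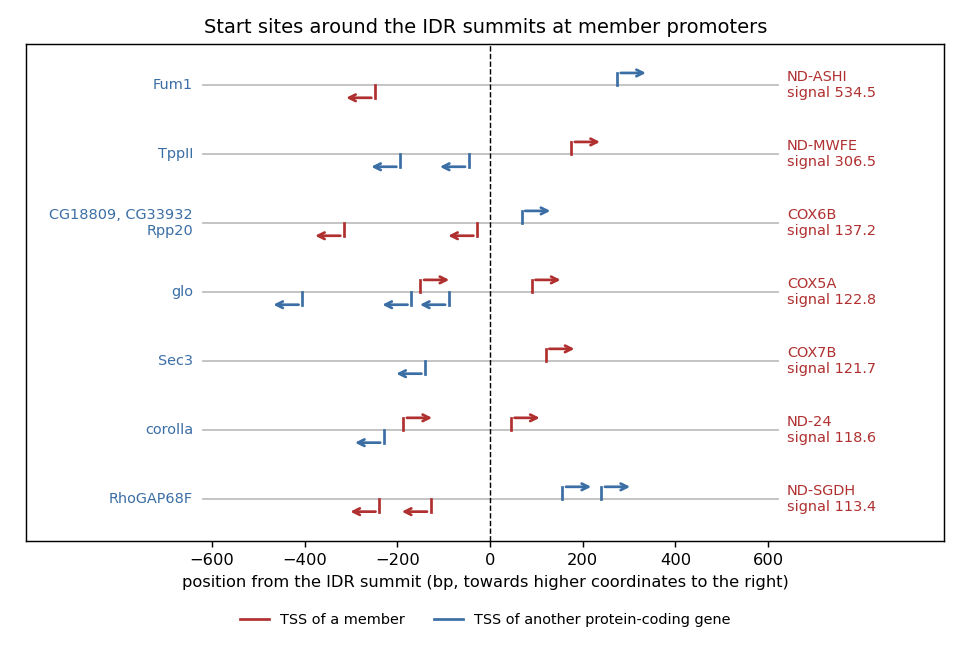
Start sites around the 7 IDR summits within 500 bp of a member TSS, with distance from the summit in bp on the x axis and 1 row per peak in order of signal. Arrows above a line point to higher coordinates and arrows below to lower ones; member TSSs are red and those of other protein-coding genes blue, with CG18809 sharing the COX6B start site at 28 bp. In every row the summit at 0 has start sites of both directions around it.

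Summits at member promoters had a median position close to that of other promoter summits. The median position of the 5 assigned promoter summits was 120 bp upstream of the TSS (range 248 to 28 bp upstream), against 124 bp upstream for 1497 pairs of a gene and an assigned IDR summit within 500 bp. Median signal was 122 for the 5 (range and 95% interval of the median both 113 to 534), against 186 for the 1455 promoter peaks of the IDR list, which the interval includes. Taking the 12 IDR peaks assigned to members together, the median signal was 141 (range 110 to 534, 95% interval of the median 119 to 394), against 172 for the whole list. The interval of the member median includes 172.

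The other assigned peaks were distal, and COX7AL2 held the strongest of them. COX7AL2 is the only L paralogue with an IDR peak and encodes a relative of the subunit VIIa of cytochrome c oxidase. It had 3 IDR peaks. The first, at chr2L:2199217-2199477, had a signal of 465 (rank 320), rank 296 (signal 191) in replicate 1 and rank 383 (signal 270) in replicate 3, with its summit 1427 bp upstream of the TSS. The second, at chr2L:2201167-2201429, had a signal of 394 (rank 481), rank 373 in replicate 1 and rank 616 in replicate 3, 3330 bp upstream. The third, at chr2L:2196584-2196993, had a signal of 145 (rank 2713), rank 2405 in replicate 1 and rank 4083 in replicate 3, in an intron 1123 bp downstream. The pair upstream of COX7AL2 thus ranked high in both replicates. Both summits lay outside the bodies of protein-coding genes, and non-coding genes were not looked at for this. The next protein-coding TSS, that of CG31668, is 6827 bp from the first summit and 4924 bp from the second. The median signal of the 7 distal member peaks was 170, against 168 for the 2682 distal peaks of the IDR list.

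COX7C, ND-B14.7 and ND-MNLL had distal peaks of lower rank. The COX7C peak at chr2R:10046264-10046673 had a signal of 224 (rank 1404), rank 3298 in replicate 1 and rank 1008 in replicate 3, and its summit lay 1884 bp upstream of COX7C in an intron of oys, a lipid acyltransferase gene. ND-B14.7, a membrane-arm subunit gene of complex I, had peaks 2640 bp (signal 170, rank 2139) and 14263 bp (signal 110, rank 4130) downstream of its TSS. Both summits lay outside the bodies of protein-coding genes, that of ND-B14.7 itself (1009 bp) included. The first was rank 3750 in replicate 1 and rank 1836 in replicate 3, and the second rank 3520 in replicate 1 and rank 3067 in replicate 3. ND-MNLL, an accessory subunit gene of complex I, shares its TSS with CG45089 and had a peak at chrX:7892483-7892892 with a signal of 137 (rank 2952), 873 bp downstream of that TSS and outside the gene. In replicate 1 the highest overlapping peak (rank 3601) was nearest to Nek2, and in replicate 3 (rank 2866) to ND-MNLL and CG45089. A second overlapping peak of replicate 1 (rank 10370) was nearest to ND-MNLL, 763 bp downstream. Nearest-TSS assignment at such distances names the closest gene and measures no contact with it.

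The share of members with an IDR peak was higher on X than on the autosomes, with overlapping intervals and no test of the difference. There were 4 of 12 on X (33.3%, interval 13.8 to 60.9%), namely ND-ASHI, ND-24, COX6B and ND-MNLL, against 21.9% of all protein-coding genes on X. On the autosomes 5 of 68 members (7.35%, interval 3.18 to 16.1%) had one, against 16.9% of all autosomal genes. The interval on X includes the share of all X genes, and that on the autosomes lies below 16.9%. With the 4137 highest peaks of replicate 1 alone, 1 of 12 members on X was called (8.33%, interval 1.49 to 35.4%), against 20.4% of all X genes. On the autosomes 5 of 68 were called (7.35%, interval 3.18 to 16.09%), against 16.15% of all autosomal genes. The count on X turned partly on gene assignment. The 4137 highest peaks of replicate 1 included some that overlapped those of ND-ASHI (rank 265) and ND-MNLL (rank 3601), but they were nearest to Fum1 and Nek2. Of the 4 genes on X, COX6B alone had no overlapping peak in replicate 1. With the 4137 highest peaks of replicate 3 alone, 3 of 12 on X were called (25.0%, interval 8.89 to 53.2%), against 22.4% of all X genes. On the autosomes there were 6 of 68 (8.82%, interval 4.11 to 17.9%), against 17.5%, inside the interval. Members on X were thus above all X genes in the IDR list and replicate 3 and below them in replicate 1, each time within the interval. Canonical members are short genes, with a median length of 1178 bp against 2166 bp for all protein-coding genes, and the part of gene length in these shares was not tested.

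The replicates were then read on their own. Among the 4137 highest peaks of each, 6 of 80 members in replicate 1 had the nearest TSS of a peak (7.5%, interval 3.48 to 15.4%), against 16.8% of all genes. In replicate 3 there were 9 of 80 (11.2%, interval 6.03 to 20.02%), against 18.3% of all genes. By nearest TSS the 4137 highest peaks of either replicate thus gave members a lower share than all genes. The difference was beyond the interval in replicate 1 and within it in replicate 3. When any TSS within 500 bp of a summit counted, replicate 1 gave 5 of 80 members (6.25%, interval 2.70 to 13.8%). That was against 10.6% of all genes, inside the interval. No member that lacked an IDR peak was within the 4137 highest of both replicates.

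At a q-value of 0.05 or less replicate 3 gave more genes than replicate 1, among all genes and among the members. In replicate 1, 6 of 80 members had a summit within 500 bp of any of their TSSs (7.5%, interval 3.48 to 15.4%), against 12.5% of all genes. In replicate 3 there were 20 of 80 (25.0%, interval 16.8 to 35.5%), against 31.8% of all genes. The 20 included 8 of 34 canonical genes of complex I, 1 of 6 of complex III, 4 of 8 of complex IV and 6 of 11 of complex V (54.5%, interval 28.0 to 78.7%), together with the L paralogue COX7AL2. In replicate 1 they included 4 of 34 of complex I, 2 of 8 of complex IV and none of the 6 of complex III or the 11 of complex V, which allows a share of up to 27.3% in complex V. The share of all genes lies within these limits of complex V in both replicates. Of the 20 genes of replicate 3, 9 (45.0%) had no summit of the relaxed list of replicate 1 within 500 bp, against 1529 of 4429 genes (34.5%) overall. Replicate 3 had 13828 peaks at this q-value and replicate 1 had 5282, and the part of that difference in these counts was not tested.

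The 6 ATP synthase genes of replicate 3 had peaks at their start sites. ATPsynE, a membrane-part subunit gene, had a peak at rank 2722 (signal 91.7) with its summit 56 bp downstream of the TSS, and neither replicate 1 nor the pooled list held a peak that overlapped it. ATPsynC, which encodes the subunit of the rotating membrane ring, had a peak at rank 5197 (signal 59.9), 72 bp downstream, with no overlapping peak in replicate 1 and one of rank 5412 (signal 90.6) in the pooled list. ATPsynB, a peripheral-stalk gene, had a peak at rank 6755 (signal 49.6), 5 bp upstream, with none in replicate 1 or the pooled list. ATPsynO, the gene of the stalk protein that confers oligomycin sensitivity, had a peak at rank 9400 (signal 38.5), 12 bp downstream, with none in replicate 1 or the pooled list. These 4 genes were thus seen in replicate 3 and not in replicate 1. ATPsynCF6, a stalk subunit gene, had a peak at rank 11980 (signal 31.7), 217 bp upstream and nearer to Sec13, with one of rank 28500 in replicate 1. ATPsynD, another stalk subunit gene, had a peak at rank 12087 (signal 31.5), 14 bp upstream, with one of rank 10019 (signal 30.1) in replicate 1 and of rank 9503 (signal 60.3) in the pooled list. ATPsynD alone of the 6 had a peak of higher rank in replicate 1 than in replicate 3, although there its −log10 q was 0.548, short of the threshold.

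ND-42 was the highest-ranked member promoter without an IDR peak. In replicate 3 the summits of a pair of overlapping peaks lay in the stretch of 229 bp between its TSS and that of Cchl, the gene of cytochrome c haem lyase. One was rank 1435 (signal 136, chr3R:22027301-22027696) with its summit 210 bp upstream of ND-42 and nearer to Cchl. The other was rank 3026 (signal 85.6, chr3R:22027502-22027897) with its summit 9 bp upstream of ND-42. Neither overlapped a peak of replicate 1 or of the pooled list. Of the 7 member promoter peaks among the 4137 highest of replicate 3, those of ND-42 (2 peaks) and ATPsynE, 3 in all (42.9%), overlapped no peak of the pooled list, against 130 of 1629 promoter peaks (7.98%) overall. Among the 23 member promoter peaks of replicate 3 at a q-value of 0.05 or less, 11 (47.8%, interval 29.2 to 67.0%) overlapped a peak of replicate 1, against 65.4% of 4594 promoter peaks. All 6 such peaks of replicate 1 overlapped a peak of replicate 3, against 94.3% of 1592. The ND-42 and ATPsynE peaks therefore stand in 1 library only.

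**Figure D3:**
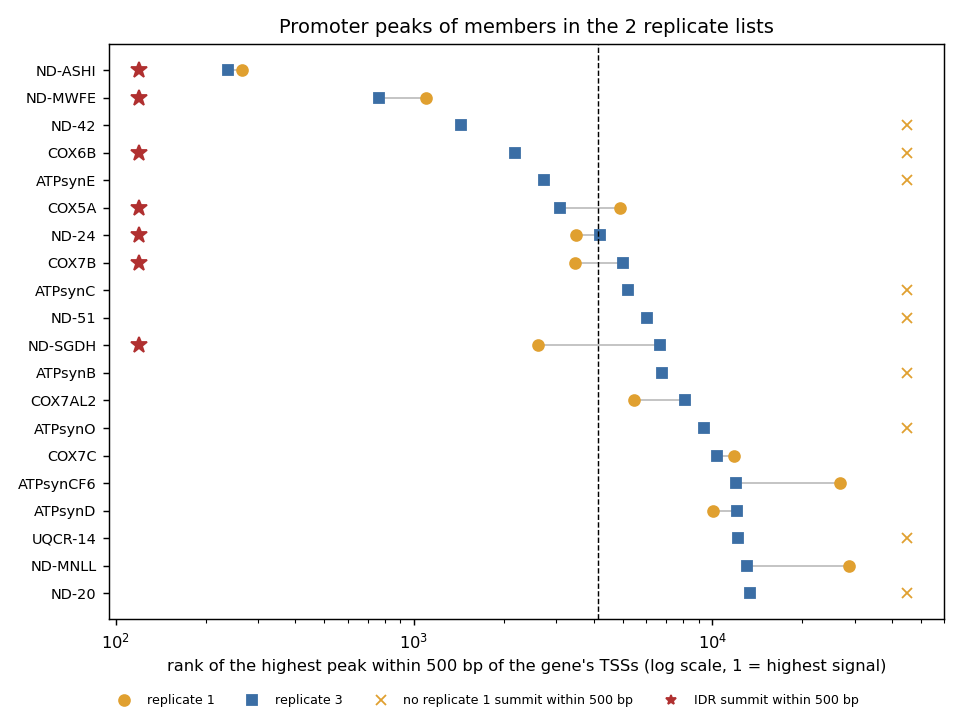
Rank of the highest peak within 500 bp of any TSS (x axis, log scale, 1 is the highest signal) in the relaxed lists of replicate 1 (orange circles) and replicate 3 (blue squares), for the 20 members with such a peak at a q-value of 0.05 or less in replicate 3. Crosses mark genes with no replicate 1 summit there, red stars the 7 genes with an IDR summit, and the dashed line rank 4137; ND-42 and ATPsynE lie left of the line in replicate 3 with a cross for replicate 1.

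Below the IDR threshold the relaxed lists added weak peaks. In the pooled list 27 of 80 members had the nearest TSS of a peak (33.8%, interval 24.3 to 44.6%), against 47.2% of all genes. In replicate 1 it was 25 of 80 (31.2%), against 51.2%, and in replicate 3 it was 38 of 80 (47.5%), against 49.9%. The canonical genes without an IDR peak that had the highest signal in the pooled list were ATPsynC, then COX4, ND-51, ATPsynD and UQCR-14. COX4, a subunit gene of the oxidase, had its peak (signal 89.1, rank 5539) 10852 bp upstream. ND-51, the gene of the flavin-binding subunit of complex I, had one (signal 65.9, rank 8398) 96 bp upstream. UQCR-14, a subunit gene of complex III, had one (signal 48.0, rank 13102) 55 bp downstream. At the other end, 32 members (40.0%), of which 23 were canonical, were nearest to no peak of any relaxed list, against 35.3% of all genes. Of the 32, 27 also had no summit within 500 bp of a TSS in any list, and the other 5, ND-MWFE among them, had a summit there that was nearer to another gene. The 27 include the genes of the catalytic beta subunit (ATPsynbeta) and a central-stalk subunit (ATPsyndelta) of ATP synthase and of the largest peripheral-arm subunit of complex I (ND-75).

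Promoter sequence was searched for 10 motifs from 250 bases before to 50 bases after the TSS of the canonical transcript, on both strands. In canonical subunit promoters a core-promoter site and an E-box stood above their share of all promoters, while for the respiratory-gene element the reading changed with the window. The site of M1BP, a core promoter factor (GGTCACAC), was in 15 of 59 canonical promoters (25.4%, interval 16.1 to 37.8%) and in 1 of 21 L paralogue promoters, against 7.54% of all promoters. The E-box bound by proneural factors (CAGCTG) was in 20 of 59 canonical promoters (33.9%, interval 23.1 to 46.6%) and in 1 of 21 L paralogue promoters, against 17.9% of all. The nuclear respiratory gene element of insects, searched as TTACGTAA, TTATATAA and TTACATAA, was in 5 of 80 member promoters (6.25%, interval 2.70 to 13.8%), namely ND-30, ND-42, ND-49, ND-MNLL and ND-SGDH, against 5.13% of all. The site of the DNA replication-related factor DREF (TATCGATA) was in 8 of 59 canonical promoters (13.6%, interval 7.03 to 24.5%), against 8.94% of all. In this window the share of all promoters lay outside the interval of canonical genes for the M1BP site and the E-box. It lay inside the interval for the DREF site in canonical genes and for the respiratory element in all members. The group counted matters for the E-box. Over all 80 members it was in 21 (26.25%, interval 17.86 to 36.8%), against 17.90%, inside the interval. For the respiratory element the reading changed with the setting. Counting every annotated TSS it was in 11 of 80 members (13.8%, interval 7.85 to 23.0%), against 6.40% of all genes, and from 500 bases before to 100 after the TSS in 14 of 80 (17.5%, interval 10.7 to 27.3%), against 10.5%, both with the share of all genes below the interval. From 100 before to 50 after it was in 3 of 80 (3.75%, interval 1.28 to 10.5%), against 1.65%, inside the interval. Over canonical genes alone, 3 of 59 in that window (5.08%, interval 1.74 to 13.9%), the same 1.65% lay below the interval. In canonical genes the M1BP site and the E-box stayed above the share of all genes, beyond the interval, in each of these settings. The DREF site did so only when every TSS counted (13 of 59 canonical genes, 22.0%, interval 13.4 to 34.1%, against 10.2%).

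Of the remaining words, the GAGA factor site and the Sine oculis core had shares away from those of all promoters. The GAGA factor word (GAGAGAG) was in 0 of 59 canonical promoters, which allows a share of up to 5.08%, against 6.20% of all. It was in 2 of 59 from 500 bases before to 100 after the TSS (3.39%, interval 0.935 to 11.5%), against 8.99%. The Sine oculis core (TGATAC), a word of the homeodomain protein that acts with Dachshund in the retinal determination network, was in 5 of 59 canonical promoters and 6 of 21 L paralogue promoters (28.6%, interval 13.8 to 49.96%), against 7.87%. From 100 bases before to 50 after the TSS it was in 2 of 21 L paralogue promoters (9.52%, interval 2.65 to 28.9%), against 3.76%. The other words were rare or near the share of all promoters, with the site of Ewg, the fly relative of nuclear respiratory factor NRF1 (GCATGCGC), in 0 of 80 member promoters, which allows up to 3.75%, against 1.06%. The monomer site of the oestrogen-related receptor (AAGGTCA) was in 1 of 80, that of ND-20, against 2.09%, and the Myc-Max E-box (CACGTG) in 4 of 80, against 4.26%. The TATA box word (TATAAA), which can overlap TTATATAA, was in 38 of 80, against 45.3%. Member promoters had a median GC content of 34.5%, against 38.0% for all promoters, and the part of base composition in these counts was not tested.

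Around the summits themselves few words were found. In windows of 299 bases centred on the 7 member promoter summits, the respiratory element was in 1 (ND-SGDH), the M1BP site in 1 (COX7B), the proneural E-box in 2 (COX7B and ND-24) and the TATA word in 4. For the 1455 promoter summits of the IDR list these shares were 5.98%, 4.88%, 19.5% and 43.3%. The GAGA factor word, in 12.4% of those 1455 windows, and the Sine oculis core, in 7.42%, were in none of the 7.

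**Figure D4:**
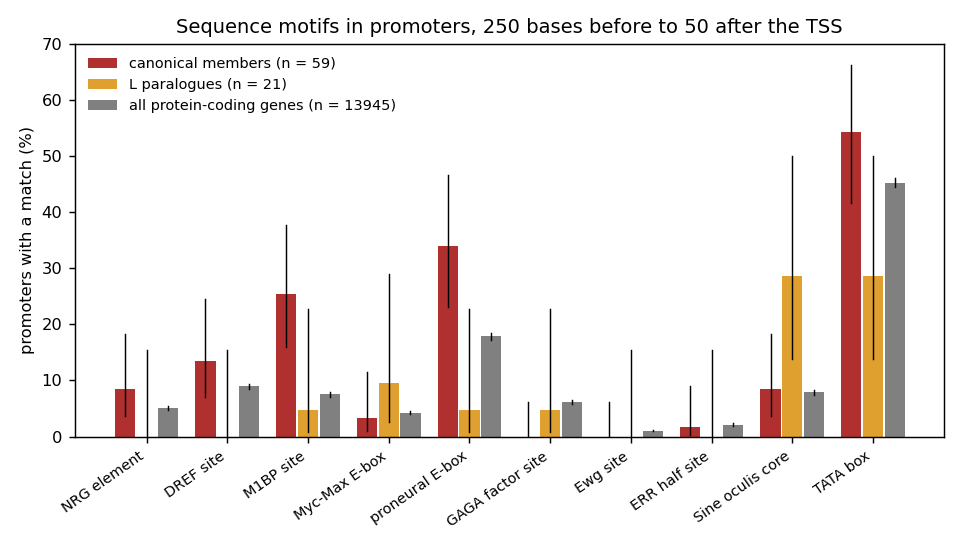
Share of promoters (%, y axis) with at least 1 match to each motif, from 250 bases before to 50 after the TSS, for canonical members (red), L paralogues (orange) and all protein-coding genes (grey), with 95% Wilson intervals as lines. Canonical members stand highest against all genes for the M1BP site (25.4%) and the proneural E-box (33.9%).

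Related genes outside the prefixes were read beside the members, and none of the peaks assigned to them had as high a signal as that of ND-ASHI. Of 16 other subunits and electron carriers, 5 had the nearest TSS of an IDR peak. They were Cyt-c1L (4 peaks, the highest with signal 385, 4066 bp upstream), blw, the gene of the ATP synthase alpha subunit (signal 302, 132 bp upstream, rank 1104 in replicate 1 and 762 in replicate 3), the cytochrome c genes Cyt-c-p (signal 245) and Cyt-c-d (signal 159), and RFeSP, the Rieske iron-sulphur protein gene of complex III (signal 158, 15641 bp upstream). The blw peak is thus a promoter peak at an ATP synthase gene, although none of the 15 ATPsyn genes had an IDR peak.

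Of 16 genes of the tricarboxylic acid cycle and pyruvate dehydrogenase, 5 had the nearest TSS of an IDR peak and 4 had a TSS within 500 bp of a summit. They were Idh3g, an isocitrate dehydrogenase subunit gene (signal 357, 136 bp upstream), muc, of the pyruvate dehydrogenase complex (5 peaks, the highest with signal 216), mAcon1, aconitase (signal 160, 38 bp upstream), kdn, citrate synthase (signal 155), and Scsalpha1, a succinyl-CoA synthetase subunit (signal 111, 445 bp downstream). The fourth of the 4 was Fum1, which shares the ND-ASHI peak. Of 12 regulators of the organelle genome and of respiratory genes, 2 were called. These were mtSSB, which binds single-stranded mitochondrial DNA (signal 242, 3097 bp upstream), and ERR, the oestrogen-related receptor (signal 122, 154 bp upstream). Of 10 assembly and insertion factors none was nearest to an IDR peak, although CIA30 had a TSS 121 bp from the summit of a peak of signal 703 (rank 98) that was nearer to CG7601. Against the 17.6% of all genes, these counts come from lists of at most 16 genes and separate no list from another.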

How the data were processed

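Anti-GFP ChIP-seq of dac-eGFP prepupae was analysed in 1 group of 2 biological replicates, numbered 1 and 3 by the labels. The authors deposited peak lists with a signal per peak, of unstated scale, and a q-value per peak as −log10 q, per the files' columns, capped in each list. Since all 4137 IDR peaks share the capped value, q served only for counts in the relaxed lists. What aligner, peak caller and IDR threshold were used is not given in the sources used here. Lists on dm6 were used, and those on dm3 were not used here. Labels put whole libraries, not columns, in the group, and 0 other sample columns were met.

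The members and gene lists were chosen with earlier results of these data known. TSSs came from Ensembl release 115 (1 gene without a canonical transcript took its outermost TSS). Summits were matched to the nearest protein-coding TSS with ties kept. Shares carry 95% Wilson intervals, and a share of 0 the limit that 3 counts allow, for counting error only. Peaks overlapped by at least 1 bp. Python 3.11.15, numpy 2.4.6, scipy 1.17.1 and matplotlib 3.10.9 were used. The nearest-TSS step was checked on 400 simulated summits placed on or near annotated start sites, and all were given the right gene. The motif step was checked on 480 motifs planted in runs of the base C, and all were found. These checks cover the code only and do not measure false matches. No test of a difference between groups was possible with 1 group.

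Genes were named by a rule: all members with an IDR peak, members high in both replicates without one, the 5 canonical members without one that had the highest pooled signal, bound genes of the other lists, and partners across a head-to-head promoter. ND-42, ND-MWFE, COX5A, ND-20, the ATP synthase genes of replicate 3, the members with a motif and those with no peak were named after their values were seen. Alternatives were each replicate's highest 4137 peaks, the pooled list, the stronger IDR peaks, other distances and windows, and, added after seeing the data, ties left out, autosomes alone and the other windows for the M1BP site, E-box and DREF site.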

Additional observations from a re-analysis of the deposited data

How the results depend on the processing

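The number of members with an IDR peak (9 of 80) was 6 (without replicate 3) to 9 with the highest 4137 peaks of either replicate alone, 27 with the pooled relaxed list, 14 with that list at a q-value of 0.05 or less, 3 with IDR peaks at or above the median signal, and 5 of 68 on the autosomes. It stayed within 1.5 times with the nearest TSS of any gene (8, against 16.1% of all genes) and without ties (7, against 16.9%). With any own TSS within 200 bp of a summit it was 6 of 80 (against 7.80%), and within 1000 bp 10 (against 15.1%). The 8 canonical genes became 5 to 8 by replicate, 5 without replicate 3, and 2 at or above the median signal. The 5 members with a nearest summit within 500 bp became 3 (without replicate 3) to 5 by replicate, 8 in the pooled list at a q-value of 0.05 or less and 1 at or above the median signal. The respiratory element was in 5 member promoters, in 3 from 100 bases before to 50 after the TSS (1.65% of all genes), in 14 from 500 before to 100 after (10.5%), and in 11 when every TSS counted (6.40%), where the wider window and every TSS put the share of all genes below the interval. The DREF site was in 8 canonical promoters, 3 in the shorter window and 13 with every TSS. Members were below the share of all genes in each setting of the IDR-peak count, though close to it for summits within 200 bp of a TSS. The share of all genes lay above their interval with replicate 1 alone and on the autosomes. It also did so in the pooled relaxed list (interval 24.3 to 44.6%, against 47.2%) and in that list at a q-value of 0.05 or less (10.7 to 27.3%, against 28.3%). For IDR peaks at or above the median signal the interval was 1.28 to 10.5%, against 10.8%. Median signal (122 to 141) and median position (120 to 41 bp upstream) moved by less than their intervals. Not every IDR peak was seen in both replicates, COX6B among them, and read depth is unknown. Among the highest 4137 peaks of replicate 1 the ND-ASHI and ND-MNLL peaks were still present, but nearest to other genes. No paired analysis was possible because there is 1 group.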

Other observations

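In the pooled relaxed list 9 of the 21 L paralogues, COX7AL2 among them, had the nearest TSS of a peak (42.9%, interval 24.5 to 63.5%), against 47.2% of all genes, and 9 had none in any relaxed list. The highest after COX7AL2 was that of ND-20L at rank 7569 (signal 71.0), 3726 bp downstream, with rank 12014 in replicate 1, where its highest peak lay 8278 bp downstream, and rank 5563 in replicate 3. ND-49L followed at rank 7744 (signal 69.8), 11035 bp downstream, with rank 8571 in replicate 1 and no peak in replicate 3. UQCR-6.4L was at rank 9478 (signal 60.4) and COX6CL at rank 9831 (signal 58.8), the second without a peak in replicate 3. COX7AL2 itself was nearest to 6 peaks of the pooled list and to 7 of either replicate.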
